A study of Mus musculus with 15 samples.

Results

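A set of 10 genes of antigen presentation by MHC class II and of Langerhans cells was followed in ear RNA of mice in which *Socs3* is deleted in keratin 5-expressing cells. The set was chosen by name and holds *H2-Aa*, *H2-Ab1*, *H2-Eb1*, *H2-DMa*, *H2-DMb1*, *Cd74*, *Ciita*, *Cd207*, *Itgax* and *Epcam*, matched exactly in expression files that list 21110 genes. All 10 were found and all 10 passed the filter on low values. The 15 mice had a C57BL/6 background. At 2 weeks after birth there were 4 wild type mice and 4 with the deletion, named *Socs3* cKO. At 10 weeks there were 3 wild type mice and 4 with the deletion. The methods state more wild type mice at each age than the 4 and 3 whose data were used here. Deletion in *Socs3* cKO is driven through keratin 5, a gene of basal keratinocytes and not of leukocytes. The labels give keratinocytes as the source and ear as the tissue, and according to the methods RNA came from ear samples. Each mouse gave 1 library, and expression is given as FPKM, read numbers set relative to gene length and to library size. Depth is unknown, as no read counts entered this work.

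MHC class II molecules are pairs of an alpha and a beta chain that carry peptides to the cell surface and show them to CD4+ T cells. The chains are folded on the invariant chain (*Cd74*), and the dimer of *H2-DMa* and *H2-DMb1* exchanges the last invariant chain fragment for a peptide. Transcription of these genes depends on *Ciita*, a co-activator without DNA binding of its own that is recruited by RFX, CREB and NF-Y factors at a conserved promoter module of X and Y boxes. In skin the cells known for class II are Langerhans cells, which live among keratinocytes and are marked by langerin (*Cd207*), together with dermal dendritic cells, which share the integrin *Itgax* (CD11c), and some macrophages. *Epcam*, an adhesion molecule, is carried by Langerhans cells and by epithelial cells of the follicle. In C57BL/6 mice the alpha partner of *H2-Eb1* is not made, so that *H2-Eb1* RNA is not followed by a surface dimer.

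Letters of the promoter module that *Ciita* is recruited to can be read in the sequence of some of the members. From these, 2 examples are shown because *H2-Aa* and *H2-Eb1* lie on the same chromosome and share the arrangement. The letters searched were GNAAC, part of the X box bound by RFX, followed on the gene strand by GATTGG, the Y box bound by NF-Y, with 15 to 40 bases from start to start. The capitals mark these 2 matches. Each stretch is given 5′ to 3′ on the strand of its gene. In mm9 the *H2-Aa* gene spans chr17:34406276-34424772 with 5 exons and the *H2-Eb1* gene chr17:34442828-34453144 with 6. The stretch of *H2-Aa* lies at chr17:34424802-34424859 on the minus strand and that of *H2-Eb1* at chr17:34442711-34442767 on the plus strand. Both stretches are upstream of the annotated gene, the first base being 91 bases before the RefSeq start site of *H2-Aa* and 101 bases before that of *H2-Eb1*.
H2-Aa: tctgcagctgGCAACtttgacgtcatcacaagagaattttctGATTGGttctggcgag
H2-Eb1: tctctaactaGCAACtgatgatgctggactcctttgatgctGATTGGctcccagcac
The starts of the capitals are 32 bases apart in *H2-Aa* and 31 in *H2-Eb1*. The spaced pair was also found in *H2-DMb1*, at 32 bases, and outside the members in *H2-Oa*, *H2-Ob* and *H2-Eb2* but not in *H2-DMb2*. It was not found within the 250 bases before the start sites of *H2-DMa*, *Cd207*, *Itgax* and *Epcam*, and RefSeq (GRCm38.p6) gave a window for 7 of the 10 members. Of 32851 such windows of all genes, 0.654% held the spaced pair, 14.6% held GATTGG on either strand and 79.6% held GNAAC on either strand. The motif letters and the spacing were chosen after these windows had been seen, and a match is a description of the letters, not of binding.

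In the wild type at 2 weeks, levels per gene length ran from *Cd74* (mean 323 FPKM, SD 34.6, n = 4) through *H2-Aa* (171, SD 15.5) and *H2-Ab1* (141, SD 7.28) to *H2-Eb1* (80.3, SD 5.03). The peptide-exchange genes were lower, at 30.0 FPKM (SD 1.36) for *H2-DMa* and 17.4 (SD 1.21) for *H2-DMb1*. *Cd207* stood at 7.56 FPKM (SD 1.15), *Itgax* at 2.15 (SD 0.285) and the co-activator *Ciita* at 2.20 (SD 0.22). In every group the class II chains were far above *Ciita*. In bulk RNA, fewer cells of a type and less RNA per cell cannot be told apart, and this holds for every comparison below.

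The libraries were compared before the genes. FPKM summed to 436293 to 671904 per mouse. The library of *Socs3* cKO replicate 1 at 2 weeks stood apart from the other 14. Across genes its deviation from the mean of all libraries changed by -1.20 for each 10% of transcript GC content, against -0.26 to 0.48 in the others, where the 4 wild type mice at 2 weeks were at 0.43 to 0.48. The 3 wild type libraries at 10 weeks had fewer genes at 0 (1414 to 3176, against 4044 to 4423 elsewhere) and their deviations changed by -0.36, -0.07 and -0.35 on the log2 scale for each doubling of transcript length, against -0.30 to 0.22 in the other 12. Each of the 4 groups has its own range of library numbers, so batch and group cannot be told apart. *Krt14*, of basal keratinocytes, was at 1633 to 4321 FPKM and *Ptprc*, of leukocytes, at 3.92 to 16.1, so RNA labelled as from keratinocytes also held that of leukocytes. *Socs3* itself was at 9.71, 10.2, 10.3 and 10.3 FPKM in the wild type at 2 weeks and at 1.25, 9.32, 12.6 and 3.51 in *Socs3* cKO (log2(FC) -1.06, SE 0.63, adjusted p = 0.18). Its values at 10 weeks were 2.76, 4.81 and 2.02 in wild type mice against 36.5, 29.8, 47.7 and 32.4 in *Socs3* cKO (log2(FC) 3.54, SE 0.29, adjusted p = 7.2e-05). One value per gene does not separate the deleted part from the rest, so this does not check the labels, and directions below are those of the labels.

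*Cd207*, the gene of langerin, was higher in *Socs3* cKO at both ages, and the cells that carried its RNA were not identified. Wild type mice had 8.27, 8.77, 6.90 and 6.31 FPKM at 2 weeks, against 30.7, 20.0, 26.6 and 21.7 in *Socs3* cKO. Wild type mice had 13.7, 9.82 and 8.89 FPKM at 10 weeks, against 44.9, 38.1, 29.4 and 47.1 in *Socs3* cKO. No *Socs3* cKO mouse overlapped a wild type mouse of its age, and every *Socs3* cKO mouse at 2 weeks was also above every wild type mouse at 10 weeks. On log2(FPKM + 0.1), on which all fold changes here are given and which understates the change of low genes, the log2(FC) was 1.69 at 2 weeks (SE 0.18, adjusted p = 0.000413) and 1.87 at 10 weeks (SE 0.22, adjusted p = 0.000461; limma with Benjamini-Hochberg adjustment over all genes tested). These are 3.22-fold and 3.67-fold. Genes were called changed at an adjusted p below 0.01 and a |log2(FC)| of at least 1. *Cd207* was called in each of the 8 fits at 2 weeks and the 7 fits at 10 weeks that left out 1 mouse, and in all alternatives of processing that were run. It lies at chr6:83621201-83627851 of mm9 with 6 exons.

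**Figure D1:**
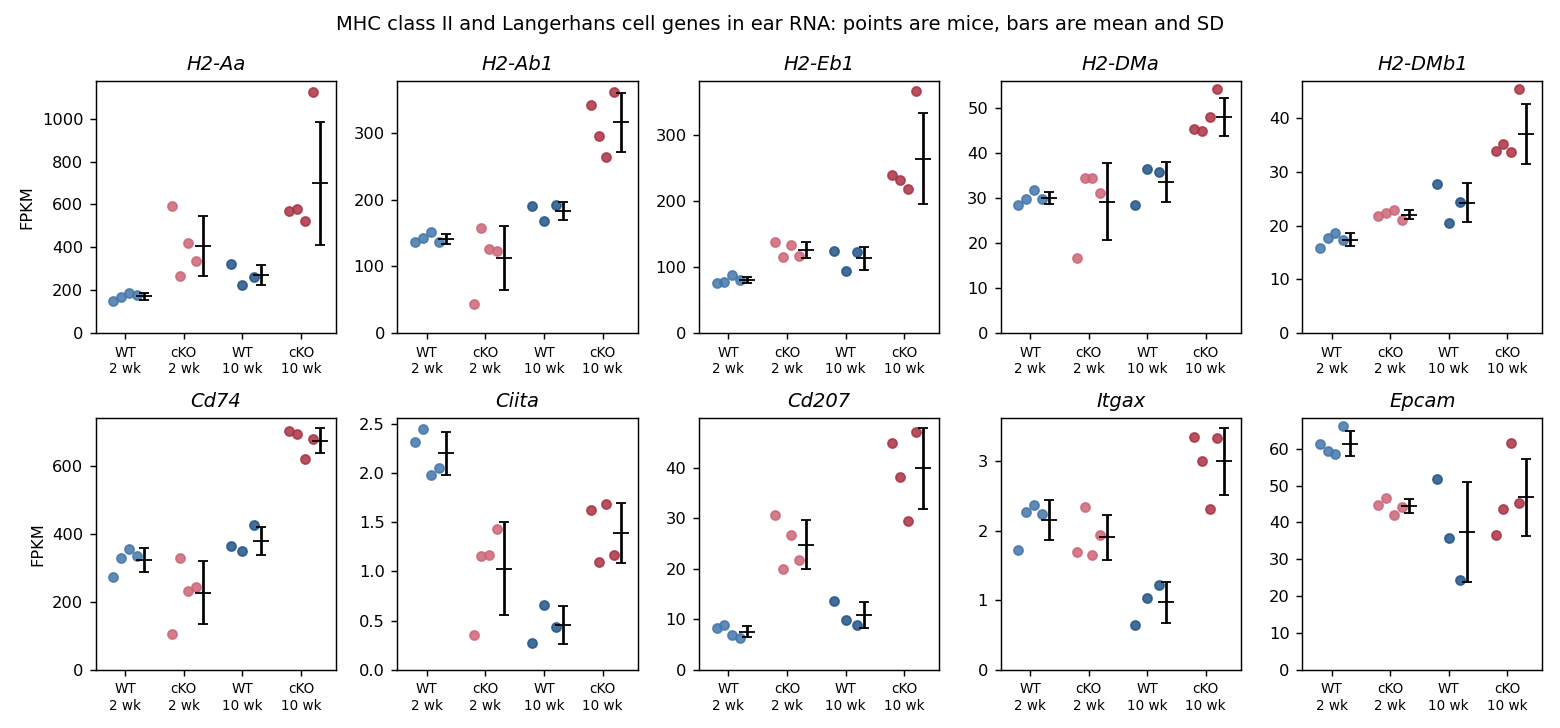
FPKM of the 10 genes in each of 15 mice (points) by genotype and age, with the mean and SD of each group as bars; each panel has its own linear axis from 0. *Cd207* in *Socs3* cKO sits between 20.0 and 47.1, above all wild type mice (6.31 to 13.7), while *H2-Ab1* and *Cd74* separate by genotype at 10 weeks and overlap at 2 weeks.

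The chains that form class II dimers differed from one another at 2 weeks. *H2-Aa*, the alpha chain, was at 149, 170, 185 and 178 FPKM in wild type mice against 592, 268, 422 and 335 in *Socs3* cKO. Its partner *H2-Ab1*, the beta chain, was at 136, 142, 151 and 136 FPKM in wild type mice against 43.8, 157, 126 and 123 in *Socs3* cKO. All 4 *Socs3* cKO mice were above the wild type for the alpha chain, and the groups overlapped for the beta chain. The log2(FC) of *H2-Aa* was 1.19 (SE 0.24, adjusted p = 0.0065) and that of *H2-Ab1* was -0.48 (SE 0.36, adjusted p = 0.287). Of the 2 members called at this age, *Cd207* and *H2-Aa*, the call of the second was kept in 1 of 8 fits that left out a mouse, namely without *Socs3* cKO replicate 2. Without replicate 1 the log2(FC) was 0.98 with an adjusted p of 0.00115, and without each of the other 6 mice the adjusted p was between 0.0147 and 0.0249. The annotated gene spans of *H2-Aa* and *H2-Ab1*, introns included, overlap by 88 bases on opposite strands, and reads from a kit that does not mark strand cannot be assigned there. Whether exons lie in this overlap, and its part in the values of the 2 chains, was not tested.

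*H2-Eb1*, the second beta chain, was at 75.7, 77.7, 87.2 and 80.8 FPKM in the wild type and at 138, 115, 134 and 116 in *Socs3* cKO at 2 weeks. The groups did not overlap, with a log2(FC) of 0.64 (SE 0.12, adjusted p = 0.00507) that stayed under the fold threshold. *Cd74*, the invariant chain, was at 274, 329, 355 and 334 in the wild type and at 106, 329, 232 and 242 in *Socs3* cKO, and these overlap (log2(FC) -0.61, SE 0.32, adjusted p = 0.134). *H2-DMa* was at 28.6 to 31.8 in the wild type and at 16.7, 34.6, 34.5 and 31.1 in *Socs3* cKO (log2(FC) -0.10, SE 0.23, adjusted p = 0.744). *H2-DMb1* was at 15.8 to 18.7 and at 21.1 to 23.0 (log2(FC) 0.34, SE 0.12, adjusted p = 0.0378). The co-activator *Ciita* was lower in every *Socs3* cKO mouse, at 2.31, 2.45, 1.98 and 2.05 FPKM in the wild type against 0.352, 1.16, 1.17 and 1.43, but did not pass the threshold (log2(FC) -1.16, SE 0.37, adjusted p = 0.0323), and its sign turned when the GC and length trend described below was removed. *Itgax*, at 1.73 to 2.37 against 1.65 to 2.34, overlapped (log2(FC) -0.17, SE 0.19, adjusted p = 0.455). *Epcam* was lower in every *Socs3* cKO mouse, at 42.0 to 46.7 against 58.5 to 66.3, with a log2(FC) of -0.46 (SE 0.11, adjusted p = 0.0114) that did not pass.

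Of the 10 members, 2 were called higher and 0 lower in *Socs3* cKO at 2 weeks. Over all 13524 genes tested, 14.4% were called, 7.24% being higher in *Socs3* cKO and 7.19% lower (979 and 972 genes). With the GC and length trend removed these were 644 and 875. In 6 members the groups did not overlap, 4 of them with *Socs3* cKO above and 2 with it below, which was the case for 56.1% of all genes tested at this age (22.9% above and 33.2% below). The members' median log2(FC) was -0.13, and that of all genes was -0.21. Exact 2-sided permutation tests of single members gave p = 0.0286, the smallest that 4 mice against 4 allow, for the 6 members whose groups did not overlap. A count of 2 in 10 is close to the background of this comparison, and at this age members lay on both sides of 0.

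At 2 weeks the members differed along with the GC content of their transcripts, most widely in 1 *Socs3* cKO library. In *Socs3* cKO replicate 1, log2(FPKM + 0.1) minus the wild type mean was 2.02 for *Cd207*, whose longest coding transcript has 47.5% GC, and 1.80 for *H2-Aa* at 51.0%. The deviation was 0.78 for *H2-Eb1* at 54.5%, -0.84 for *H2-DMa* at 55.6%, -1.59 for *Cd74* at 56.6%, -2.34 for *Ciita* at 56.7% and -1.69 for *H2-Ab1* at 57.4%. The order was not strict, since *Itgax* at 51.6% and *Epcam* at 52.7% were at -0.33 and -0.45. In the other 3 *Socs3* cKO mice the deviations ran from 1.40 to 1.81 for *Cd207* and from 0.65 to 1.31 for *H2-Aa*. They ran from 0.52 to 0.74 for *H2-Eb1* and from 0.05 to 0.20 for *H2-DMa*. *Cd74* was at -0.47 to 0.04, *Ciita* at -0.86 to -0.58 and *H2-Ab1* at -0.20 to 0.15. *Itgax* was at -0.35 to 0.12 and *Epcam* at -0.54 to -0.39. Their libraries changed by -0.18 to -0.13 for each 10% of GC content, against 0.43 to 0.48 in the wild type at 2 weeks, without overlap. With the trend of each library with GC content and transcript length removed, an alternative chosen after seeing the data, the log2(FC) at 2 weeks was 1.19 for *Cd207* (adjusted p = 0.000417), 0.76 for *H2-Aa* (adjusted p = 0.00124) and 0.14 for *Ciita* (adjusted p = 0.553). *Cd207* alone was then called, and alone without replicate 1 as well, where its log2(FC) was 1.58. The log2(FC) of *H2-Ab1* moved from -0.48 to -0.30 with the trend removed, to -0.07 without replicate 1 and to 0.05 with both.

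**Figure D2:**
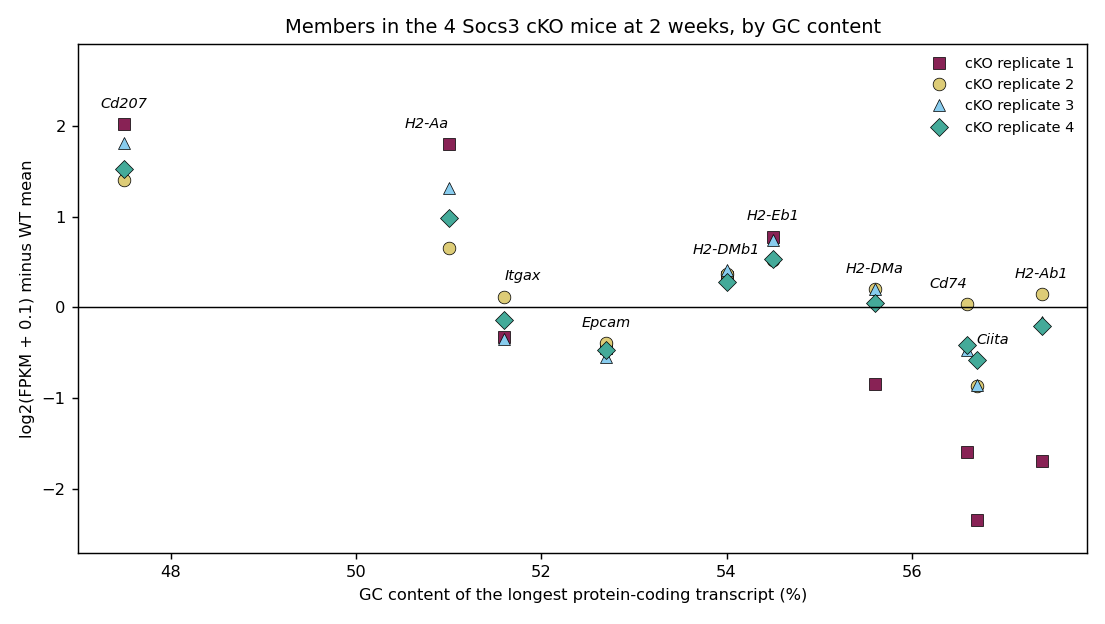
Deviation of each member from the wild type mean at 2 weeks, as log2(FPKM + 0.1), in each of the 4 *Socs3* cKO mice (symbols), against the GC percent of the member's longest protein-coding transcript. Replicate 1 (squares) is at 2.02 for *Cd207* and between -2.34 and -0.84 for the 4 members above 55% GC, while the other 3 mice stay between -0.86 and 1.81.

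At 10 weeks every class II gene among the members was higher in every *Socs3* cKO mouse than in every wild type mouse. *H2-Aa* was at 321, 226 and 263 FPKM in the wild type and at 569, 578, 522 and 1127 in *Socs3* cKO (log2(FC) 1.31, SE 0.29, adjusted p = 0.00781). *H2-Ab1* was at 191, 168 and 192 against 342, 295, 264 and 362 (log2(FC) 0.78, SE 0.18, adjusted p = 0.0102). *H2-Eb1* was at 124, 93.5 and 122 against 240, 231, 218 and 367 (log2(FC) 1.20, SE 0.22, adjusted p = 0.00364). *H2-Aa* and *H2-Eb1* passed the threshold while *H2-Ab1* missed it on both counts. *Cd74* was at 363, 349 and 427 FPKM in the wild type and at 704, 694, 621 and 678 in *Socs3* cKO, 1.78-fold higher (log2(FC) 0.83, SE 0.19, adjusted p = 0.00852) and under the fold threshold. *H2-DMa* was at 28.4, 36.5 and 35.8 against 45.3, 44.9, 48.0 and 54.2 (log2(FC) 0.52, SE 0.16, adjusted p = 0.0303), and *H2-DMb1* at 27.8, 20.6 and 24.5 against 34.0, 35.3, 33.7 and 45.5 (log2(FC) 0.61, SE 0.18, adjusted p = 0.0242). Neither passed, although their groups do not overlap.

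*Ciita* and *Itgax* were the lowest members in the wild type at 10 weeks and rose in *Socs3* cKO, and *Ciita* passed the filter on low values through the *Socs3* cKO mice alone. *Ciita* was at 0.270, 0.658 and 0.434 FPKM in the wild type and at 1.62, 1.09, 1.68 and 1.17 in *Socs3* cKO (log2(FC) 1.47, SE 0.34, adjusted p = 0.009), and without that filter it was not called (adjusted p = 0.0131). *Itgax* was at 0.651, 1.04 and 1.22 against 3.35, 3.01, 2.32 and 3.34 (log2(FC) 1.56, SE 0.28, adjusted p = 0.00306). *Epcam*, at 51.7, 35.9 and 24.5 against 36.7, 43.6, 61.5 and 45.4, was the one member whose groups overlapped (log2(FC) 0.36, SE 0.26, adjusted p = 0.296).

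At 10 weeks 5 of the 10 members were called higher and 0 lower, namely *Cd207*, *Itgax*, *Ciita*, *H2-Aa* and *H2-Eb1*. Over all 13105 genes tested, 14.9% were called, 12.5% being higher and 2.43% lower (1638 and 319 genes). With median-of-ratios scaling these were 1073 and 632, and with quantile normalization 909 and 817, and all members kept their sign under both. With median-of-ratios scaling *Cd207* and *Itgax* alone of the members were called, and *H2-Aa* (1.05, adjusted p = 0.0329), *H2-Eb1* (0.94, adjusted p = 0.0206) and *Ciita* (1.24, adjusted p = 0.0164) were not. The members' median log2(FC) was 1.02, against 0.31 for all genes. In 9 of 10 members the lowest *Socs3* cKO mouse exceeded the highest wild type mouse. This was so for 31.2% of all genes tested, the opposite for 11.1%, and either for 42.3%. The exact 2-sided permutation test gave p = 0.0571 for these 9, the smallest that 3 mice against 4 allow, so that it cannot reach 0.05. Leaving out single mice, *Cd207* was called in 7 of 7 fits, *H2-Eb1* in 5, *Itgax* in 4, and *H2-Aa* and *Ciita* in 1 each. *H2-Eb1* lost the call without wild type replicate 1 (adjusted p = 0.011) or 3 (adjusted p = 0.0141), and *Itgax* without wild type replicate 1 (0.0129) or *Socs3* cKO replicate 1 (0.0114) or 2 (0.0106), as adjusted p. *H2-Aa* kept the call without *Socs3* cKO replicate 4 and lost it without each of the other 6 mice, with an adjusted p of up to 0.0359. *Ciita* kept it without wild type replicate 2 and lost it without each of the others, with an adjusted p of up to 0.0338. No sign changed. With the GC and length trend removed 7 members were called, with *H2-Ab1* at 1.35 and *Cd74* at 1.30 among them.

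**Figure D3:**
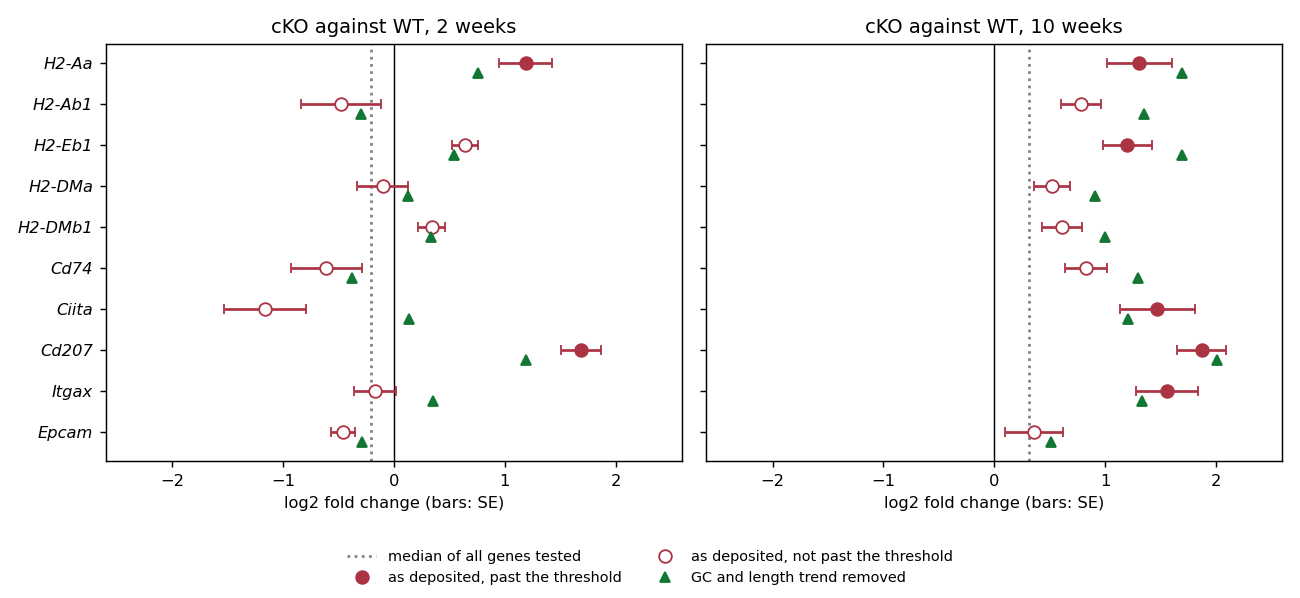
log2(FC) of *Socs3* cKO against the wild type for each member at 2 weeks (left) and 10 weeks (right), circles with SE bars as deposited (filled where called changed) and triangles with the GC and length trend of each library removed; the dotted line is the median of all genes tested. At 2 weeks members lie between -1.16 and 1.69, at 10 weeks between 0.36 and 1.87.

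The genotype by age interaction tests whether the difference between genotypes itself differed between ages. It was called for *Ciita* (2.63 on the log2 scale, SE 0.51, adjusted p = 0.00158), *Itgax* (1.74, SE 0.32, adjusted p = 0.00116) and *Cd74* (1.44, SE 0.38, adjusted p = 0.00785), all toward a higher ratio of *Socs3* cKO to wild type at 10 weeks. Over all genes 24.5% were called in this test (18.0% higher and 6.55% lower, 2504 and 913 genes, and 1717 and 1564 with median-of-ratios scaling), so 3 of 10 is near the background. The interaction was 0.19 for *Cd207* (SE 0.30, adjusted p = 0.616, 95% interval -0.44 to 0.82) and 0.13 for *H2-Aa* (SE 0.39, adjusted p = 0.804), and the sign of both turned with median-of-ratios scaling. For *Cd74* the call was kept in 2 of 15 fits that left out a mouse, those without *Socs3* cKO replicate 1 or 2 at 2 weeks, and without any other mouse the adjusted p was up to 0.0205. With the GC and length trend removed, the interaction was 1.08 for *Ciita* (adjusted p = 0.0118) and 0.99 for *Itgax* (adjusted p = 0.0192), neither of them called, and 1.68 for *Cd74* (adjusted p = 0.000829). The call of *Cd74* was lost with median-of-ratios scaling (0.97, adjusted p = 0.0271) and that of *Itgax* with quantile normalization (0.80, adjusted p = 0.0704).

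In the wild type *Ciita* fell by 2.11 on the log2 scale from 2 to 10 weeks (SE 0.37, adjusted p = 0.000503) and *Itgax* fell by 1.10 (SE 0.23, adjusted p = 0.00174), while 25.5% of all genes were called (6.18% higher and 19.4% lower, 861 and 2698 genes, and 1552 and 1746 with median-of-ratios scaling). These are the 2 longest transcripts of the members, 5290 bases for *Ciita* and 4045 for *Itgax*. With the GC and length trend removed the differences were -1.03 for *Ciita* (adjusted p = 0.00155) and -0.56 for *Itgax* (adjusted p = 0.0507). *Itgax* also lost the call without wild type replicate 1 at 10 weeks (-0.87, adjusted p = 0.0126). With quantile normalization *Itgax* was not called (-0.38, adjusted p = 0.226) and *Cd207* was, as higher at 10 weeks (1.08, adjusted p = 0.000979). In *Socs3* cKO, *Cd74* rose by 1.68 (SE 0.26, adjusted p = 0.000835), *H2-Ab1* by 1.62 (SE 0.29, adjusted p = 0.00304) and *H2-Eb1* by 1.04 (SE 0.17, adjusted p = 0.00127), while 3.54% of all genes were called (2.01% higher and 1.53% lower). Without *Socs3* cKO replicate 1 at 2 weeks these were 1.35, 1.22 and 1.09, all called. *H2-Eb1* lost the call without *Socs3* cKO replicate 4 at 10 weeks (0.87, adjusted p = 0.00182) and with median-of-ratios scaling (0.96, adjusted p = 0.0118), and *H2-Ab1* without *Socs3* cKO replicate 1 at 10 weeks (1.58, adjusted p = 0.012). In the wild type *H2-Eb1* differed by 0.48 with age (adjusted p = 0.038) and *H2-Ab1* by 0.37 (adjusted p = 0.339), and their interactions, 0.56 (adjusted p = 0.0747) and 1.25 (adjusted p = 0.0289), were not called.

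Ordered by mean log2 level over the 4 groups, *Socs3* cKO at 10 weeks was highest for 8 of the 10 members and the wild type at 2 weeks for *Ciita* and *Epcam*. For *Cd207* the order was wild type at 2 weeks, wild type at 10 weeks, *Socs3* cKO at 2 weeks and *Socs3* cKO at 10 weeks, and only the last 2 neighbours overlapped. For *H2-Aa* the order was the same, and the 2 upper steps overlapped. For *H2-Ab1* and *Cd74*, *Socs3* cKO at 2 weeks was lowest and overlapped with the wild type at 2 weeks. For *Epcam* all 3 pairs of neighbours overlapped.

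Ratios of members within a mouse do not depend on the scaling between libraries. *Epcam* relative to *Cd207* at 2 weeks was 7.42, 6.78, 8.47 and 10.5 in wild type mice against 1.46, 2.34, 1.58 and 2.05 in *Socs3* cKO, with a log2 difference of -2.15 (exact permutation p = 0.0286, the smallest possible). At 10 weeks the ratio was 3.77, 3.65 and 2.76 in wild type mice against 0.817, 1.14, 2.09 and 0.964 in *Socs3* cKO, with a log2 difference of -1.51 (exact permutation p = 0.0571, the smallest possible). The ratio was lower in every *Socs3* cKO mouse than in every wild type mouse of its age. Most of this is the rise of *Cd207* (log2(FC) 1.69 at 2 weeks and 1.87 at 10 weeks), as *Epcam* was at -0.46 and 0.36, so the ratio is not a separate result. *H2-Aa* relative to *Cd207* was 18 to 28.2 and 13.4 to 19.3 at 2 weeks (log2 difference -0.50, exact permutation p = 0.0857), and 23.0 to 29.5 and 12.7 to 23.9 at 10 weeks (log2 difference -0.56, exact permutation p = 0.171), with overlap at both ages. *Ciita* relative to *H2-Aa* was lower in all *Socs3* cKO mice at 2 weeks, from 0.000595 to 0.00433 against 0.0107 to 0.0155 (log2 difference -2.35, exact permutation p = 0.0286), and the difference was -0.63 with the GC and length trend removed. At 10 weeks it was 0.00104 to 0.00322 against 0.000839 to 0.00291 (log2 difference 0.15, exact permutation p = 0.857), with overlap.

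The most even pair was *Cd74* and *H2-Ab1*, whose FPKM ratio lay between 1.84 and 2.45 in all 15 mice, *Socs3* cKO replicate 1 at 2 weeks included (2.43). This ratio and that of *H2-Aa* to *H2-Ab1* were added after the data had been seen and are given without a test. The 2 chains of a dimer were less even. At 2 weeks the ratio of *H2-Aa* to *H2-Ab1* lay between 1.10 and 1.31 in wild type mice and was 13.5, 1.70, 3.35 and 2.72 in *Socs3* cKO, and its values at 10 weeks were 1.69, 1.35 and 1.37 in wild type mice against 1.66, 1.96, 1.98 and 3.11 in *Socs3* cKO. *Cd74* and *H2-Ab1* are close in GC content (56.6% and 57.4%), and *H2-Aa* is at 51.0%.

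The genes most like *H2-Aa* and most like *Cd207* between mice of a group were found by Pearson's r of log2(FPKM + 0.1) after subtracting the group means, over 15 mice and among 10319 genes that reached an FPKM of 1 in every mouse. Closest to *H2-Aa* were *0610007C21Rik* (r = 0.975), *Ndufs4* (0.974), a subunit of mitochondrial complex I, *Rpl9* (0.967), a ribosomal protein, *Bud31* (0.966) and *Gm2a* (0.966), a lysosomal lipid-binding protein. Closest to *Cd207* were *Adh7* (r = 0.899), *Il1r2* (0.860), the decoy receptor for interleukin-1, *Dnase1l1* (0.848), *Cox19* (0.848) and *Klrb1b* (0.842). Transcripts of these 10 genes had 41.7% to 51.0% GC, where the median of the genes ranked was 50.2%. The mice of a group share a range of library numbers, and libraries share the trend with GC content, and these values are given as a description.

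Other parts of the class II pathway were described from lists of genes. Their counts stand beside a background of 7.24% of all genes tested called higher and 7.19% lower at 2 weeks. At 10 weeks it was 12.5% higher and 2.43% lower, so a count of 1 in 10 genes is near the background. Of other class II chains *H2-DMb2*, a second DM beta gene, was the one tested. It rose at 10 weeks from 9.49, 6.44 and 6.12 FPKM to 14.4, 13.9, 17 and 21 (log2(FC) 1.17, SE 0.22, adjusted p = 0.004) and was not called at 2 weeks (log2(FC) 0.09, SE 0.15, adjusted p = 0.605). With median-of-ratios scaling it was not called at 10 weeks either (0.91). It shares 25.2% of its 50-base transcript words with *H2-DMb1*, so reads may be split between them. Of 13 regulators and peptide-processing genes, 2 rose and 1 fell at 2 weeks and 0 were called at 10 weeks, where 5 were higher and 0 lower at an unadjusted p below 0.05 in limma. The risers were *Ctss* (log2(FC) 1.40) and *Ctsl* (1.16), proteases that trim the invariant chain and peptides, and the one that fell was *Rfxank* (-1.25), a subunit of the RFX complex. None of these 3 was called at 2 weeks with the GC and length trend removed, and *Ctss* was called higher at 10 weeks. Of 10 genes of class I presentation, *B2m* (log2(FC) 1.65, SE 0.23, adjusted p = 0.00147), the light chain of class I molecules, rose at 2 weeks, and *H2-K1* (1.28, SE 0.21, adjusted p = 0.00217), a class I heavy chain, rose at 10 weeks. With the GC and length trend removed *H2-K1* was called at both ages and *B2m* at 10 weeks alone.

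Co-stimulatory genes, which dendritic cells raise on maturation, showed the larger changes at 10 weeks. Of 6 tested, 2 rose (*Cd80* and *Cd86*) and 1 fell (*Icosl*) at 2 weeks, and 4 rose and 0 fell at 10 weeks. Of all genes tested, 7.24% were called higher and 7.19% lower at 2 weeks, and 12.5% and 2.43% at 10 weeks. *Cd80* was at 0.313 to 0.573 FPKM in wild type mice at 2 weeks and at 0.284 to 0.486 at 10 weeks. At both ages it passed the filter on low values through *Socs3* cKO mice alone. *Cd83* was at 2.81, 1.68 and 1.96 FPKM in the wild type and at 18.9, 19.0, 16.4 and 29.7 in *Socs3* cKO at 10 weeks (log2(FC) 3.22, SE 0.26, adjusted p = 6.39e-05). *Cd86* was at 2.6, 1.97 and 1.37 against 7.89, 10.1, 6.79 and 12.1 (log2(FC) 2.17, SE 0.28, adjusted p = 0.000712). No mouse of a genotype overlapped the other for either gene. At 2 weeks, without *Socs3* cKO replicate 1, *Cd86* was not called and *Cd80* was too low to be tested. With the GC and length trend removed neither was called at 2 weeks. At 10 weeks *Cd83*, *Cd86* and *Icosl* were called with the trend removed, and 2 genes, *Cd83* and *Cd86*, with median-of-ratios scaling.

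*Ciita* is induced by interferon-gamma in many cells, and the genes of that pathway were therefore read beside it. *Ifng* itself was listed at 0 in all 8 *Socs3* cKO mice and at up to 0.143 FPKM in the wild type, so no level of it was measured. Over all genes tested, 7.24% were called higher at 2 weeks and 12.5% at 10 weeks. At 2 weeks 1 of 9 genes tested rose (*Ifngr1*, log2(FC) 1.21), which was not called with the GC and length trend removed, and at 10 weeks 3 of 10 rose. These were *Cxcl10* (log2(FC) 4.93, SE 0.47, adjusted p = 0.000174), a chemokine, *Irf1* (3.18, SE 0.19, adjusted p = 1.22e-05), a factor that acts on a *Ciita* promoter, and *Ifngr1* (1.05, SE 0.17, adjusted p = 0.00216), the last not called with median-of-ratios scaling. *Irf1* was at 6.88, 8.39 and 8.39 FPKM in the wild type and at 65.3, 61.9, 95.6 and 70.2 in *Socs3* cKO.

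Genes that Langerhans cells need or share were less uniform than *Cd207*. *Il34*, the cytokine from keratinocytes on which Langerhans cells depend, fell at 10 weeks, from 37.5, 35 and 44 FPKM to 17.3, 20.0, 19.9 and 19.1 (log2(FC) -1.02, SE 0.16, adjusted p = 0.00158), and was not called with the GC and length trend removed. Its receptor *Csf1r* rose, from 23.6, 21.6 and 21.1 to 53.9, 50.8, 49.5 and 52.3 (log2(FC) 1.22, SE 0.14, adjusted p = 0.000438), and was likewise not called with the trend removed. Of 14 such genes tested, 4 rose and 1 fell at 10 weeks, and 1 rose (*Cd24a*, log2(FC) 1.02) at 2 weeks, where the count was 0 higher and 2 lower without *Socs3* cKO replicate 1. Over all genes 12.5% were called higher and 2.43% lower at 10 weeks, and 7.24% and 7.19% at 2 weeks, so 1 in 14 is near the background. The counts at 10 weeks were 1 higher and 0 lower with the GC and length trend removed. Of 10 genes of dendritic cell migration tested at 10 weeks, *Ccl20*, which draws Langerhans cell precursors, rose by 5.15 on the log2 scale (SE 0.55, adjusted p = 0.000292) and *Ccr7*, the receptor for the way to lymph nodes, by 2.59 (SE 0.35, adjusted p = 0.00099). *Ccr7* was at 0.514, 0.160 and 0.381 FPKM in the wild type at that age and passed the filter on low values through the *Socs3* cKO mice alone. At 2 weeks 2 of 9 rose (*Ccl21a*, 1.66, and *Ccl21b*, 1.45) and 2 fell, with *Cxcr4* at -2.21. The transcripts of *Ccl21a* and *Ccl21b* each have 870 bases in 4 exons. Whether reads of 50 bases tell these 2 genes apart was not tested, so they may be 1 signal.

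**Figure D4:**
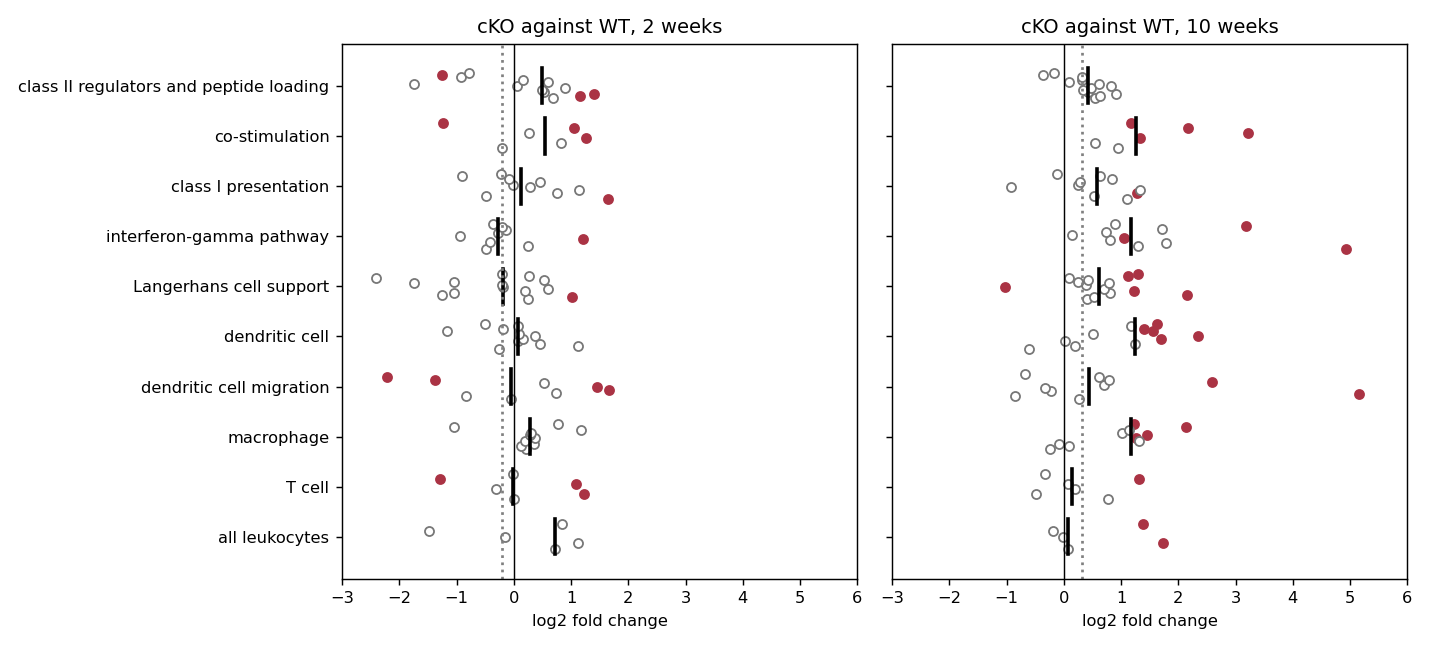
log2(FC) of *Socs3* cKO against the wild type for the genes of 10 lists at 2 weeks (left) and 10 weeks (right); each circle is 1 gene, filled red where called changed, black bars are list medians and the dotted line is the median of all genes tested. Co-stimulation, the interferon-gamma pathway, dendritic cell and macrophage genes have medians of 1.26, 1.17, 1.24 and 1.18 at 10 weeks.

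Some markers of other cells that can carry class II were also higher at 10 weeks, an age at which 12.5% of all genes tested were called higher and 2.43% lower. Of 11 dendritic cell genes tested, 5 rose at 10 weeks, led by *Flt3* (log2(FC) 2.35), *Dpp4* (1.70) and *Zbtb46* (1.63), and 0 were called at 2 weeks, where 1 was higher and 1 lower at an unadjusted p below 0.05 in limma. Of 10 macrophage genes, 4 rose at 10 weeks, led by *Mertk* (2.14), *Emr1* (1.46) and *Cd68* (1.27), and 0 at 2 weeks, where 3 were higher and 1 lower at an unadjusted p below 0.05 in limma. *C1qa* and *C1qc* of the macrophage list were at log2(FC) -0.24 and -0.08 at 10 weeks, not called, and 8 of its 10 genes were above 0. *Mertk* was at 0.851, 2.09 and 0.935 FPKM in the wild type at that age and passed the filter on low values through the *Socs3* cKO mice. The dendritic cell list holds none of the members. Of its leaders *Flt3* and *Zbtb46* were below 1 FPKM in every wild type mouse at 10 weeks and passed the filter through the *Socs3* cKO mice alone, and *Zbtb46* was not called with the GC and length trend removed. *Batf3* was at -0.60 (adjusted p = 0.147), and *Xcr1*, too low to be tested, was at 0.660 to 1.14 FPKM in the wild type and at 0.354 to 0.472 in *Socs3* cKO. The summed FPKM of the macrophage list ran from 499 to 891 in the wild type and from 873 to 1476 in *Socs3* cKO at 10 weeks, and that of the dendritic cell list from 85.6 to 121 and from 110 to 224. *Ptprc*, carried by all leukocytes, was at 5.65, 6.48, 4.95 and 5.02 FPKM in the wild type and at 11.9, 8.95, 10.8 and 8.29 in *Socs3* cKO at 2 weeks (log2(FC) 0.84, SE 0.17, adjusted p = 0.00721), and rose at 10 weeks (log2(FC) 1.38, SE 0.22, adjusted p = 0.00174), a call lost with the GC and length trend removed. The 5 leukocyte genes did not share a direction. At 10 weeks 2 of them were called higher, *Ptprc* and *Cd53* (log2(FC) 1.73, SE 0.24, adjusted p = 0.00106), and 0 lower. *Cd53* stayed called with the GC and length trend removed. *Laptm5* was at -1.48 at 2 weeks (adjusted p = 0.0545) and -0.18 at 10 weeks (adjusted p = 0.406), and *Coro1a* at -0.15 and -0.02. The median of the 5 at 10 weeks was 0.07, against 0.31 for all genes. No gene of the dendritic cell or macrophage list was at 0 in all libraries of a group. The part of these cells in the change of the class II genes was not tested.

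B cell genes, of another cell type that carries class II, were at low levels. The 7 of them summed to 1.09 to 5.19 FPKM in all mice, and *Cd79a* was at up to 1.40. The 2 that could be tested at 10 weeks were not called, and 0 had an unadjusted p below 0.05 in limma. T cell genes gave no common direction, with *Cd3e* at log2(FC) -0.31 (SE 0.36, adjusted p = 0.488) at 2 weeks and 0.20 (SE 0.26, adjusted p = 0.555) at 10 weeks. Of 6 tested, *Cd3d* and *Cd3g* rose and *Cd4* fell at 2 weeks, none of them called with the GC and length trend removed, and *Cd4* rose (log2(FC) 1.32) at 10 weeks, a call lost with median-of-ratios scaling. The shares of all genes called were 7.24% higher and 7.19% lower at 2 weeks and 12.5% higher at 10 weeks. None of 2 neutrophil genes at 2 weeks and 4 at 10 weeks was called in limma, where 0 and 1 had an unadjusted p below 0.05. Of the keratinocyte genes *Krt14*, of the basal layer, rose at 2 weeks (log2(FC) 1.02, SE 0.21, adjusted p = 0.0069), a call lost without *Socs3* cKO replicate 1, and was not called at 10 weeks (0.64, SE 0.33, adjusted p = 0.151). The other 4 keratinocyte genes were below 0 at 2 weeks and not called, with *Krt15* at 770 to 909 FPKM in *Socs3* cKO against 1180 or more (log2(FC) -0.64, SE 0.13, adjusted p = 0.00796), and the median of the 5 was -0.54. All 8 hair keratins in the files fell at 2 weeks and none passed the filter on low values at 10 weeks. Their FPKM summed to between 676 and 1112 in wild type mice of 2 weeks and to at most 13.8 in every other group, so the ears of the 2 genotypes at 2 weeks also differed in hair follicle RNA, and its part in the values of the members was not tested.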

How the data were processed

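RNA from ears of 15 mice had been read as single reads of 50 bases on libraries that do not mark strand. According to the labels and the methods, the authors aligned the reads to mm9 with TopHat2 2.1.0, and the submitters' processing notes also name Cufflinks. The deposited FPKM values, 1 per gene and mouse, were used as they stand. The authors tested genes with edgeR, which needs counts, and limma on log2(FPKM + 0.1) took its place here with the same thresholds. Groups were taken from the sample labels.

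A gene was tested where 3 or more mice of a fit reached an FPKM of 1, with limma 3.58.1 (R 4.3.3), its prior variance following the mean level, 2-sided, with Benjamini-Hochberg adjustment over all genes tested. The 2 ages were fitted apart, and the interaction and age contrasts were fitted on all 4 groups. At 10 weeks, with 3 wild type mice, a gene below 1 FPKM in any of them could pass this filter only with *Socs3* cKO mice. Single members and ratios were compared with exact 2-sided permutation tests in Python 3.11.15 (numpy 2.4.6, pandas 2.3.3, scipy 1.17.1, matplotlib 3.10.9). The limma step was tested on simulated data. Nothing in the labels says whether mice of a group share a litter or a preparation, so p-values measure the spread between these samples. GC content and length came from the longest protein-coding transcript of a GENCODE annotation of mm9, found for 95.9% of expressed genes, and their trend was removed with a polynomial of degree 3 per library.

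Named genes were the 10 members, up to 3 called genes of each list with the largest change, a few genes fixed by name (among them *Il34*, *Ptprc*, *Cd3e*, *Cd79a*, *Krt14* and *Socs3*), and the 5 genes most like *H2-Aa* and *Cd207*. Other genes of the lists were named after their values were seen. The members and the 16 lists were chosen with earlier results of these data known. *H2-Ea*, *Spi1*, *Trac*, *Ly6g* and *Krt85* were not analysed here, and *Adgre1* was read under its older symbol *Emr1*. Alternatives were 2 other pseudocounts, 2 other filters, median-of-ratios scaling, quantile normalization, a constant prior variance, a replicate block, all groups in 1 fit, and leaving out each mouse.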

Additional observations from a re-analysis of the deposited data

Results flagged for a closer look

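In 39 groups of 4 mice, the gap between the highest or lowest mouse and its neighbour was set against the group's whole range (Dixon's test), and chance alone would pass its 95% critical value in about 1 group in 20. Of the 5 groups past it, 2 belong to *Socs3* cKO replicate 4 at 10 weeks, which was highest for *H2-Aa* (0.867 of the range) and for *H2-DMb1* (0.846). Another 2 belong to *Socs3* cKO replicate 1 at 2 weeks, which was lowest for *H2-DMa* (0.855) and for *Ciita* (0.841), and in which the trend with GC content was -1.20 log2 units per 10%. The last is wild type replicate 1 at 2 weeks, lowest for *Itgax* (0.833).

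The difference between genotypes differed between ages, by the interaction term of limma, for *Cd74* (1.44 on the log2 scale, adjusted p = 0.00785), *Ciita* (2.63, adjusted p = 0.00158) and *Itgax* (1.74, adjusted p = 0.00116). Over all genes 24.5% were called in this test.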

How the results depend on the processing

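Of the repeats of the main results under another setting, 171 were classed as the same, 24 as moved and 4 as reversed. A small change of a count, or a shift of a ratio within the spread of a group, was still classed as the same. Thus the count of 5 members at 10 weeks was 4 with either other pseudocount and 7 with the GC and length trend removed. The interaction count of 3 was 2 with median-of-ratios scaling. The count of members called at 2 weeks, 2 as reported, was 1 with quantile normalization, with the replicate block, with the GC and length trend removed, and with that trend removed and *Socs3* cKO replicate 1 left out together, and it ranged from 1 to 2 with single mice left out. At 10 weeks the count of 5 became 3 with no filter on low values, 2 with median-of-ratios scaling, 3 with quantile normalization and 2 with the replicate block, and ranged from 1 to 4 with single mice left out. The count of 2 for the wild type with age was 1 with a pseudocount of 1, with median-of-ratios scaling, with the GC and length trend removed, and with that and *Socs3* cKO replicate 1 at 2 weeks left out. With quantile normalization it stayed at 2, with *Cd207* in the place of *Itgax*. The cause was not tested. The ratio of *Ciita* to *H2-Aa* at 10 weeks, 0.15 as reported and not called, was -0.59 with a pseudocount of 1, -0.48 with the GC and length trend removed, and ranged from -0.24 to 0.53 with single mice left out.

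Signs that turned were all of differences not called as reported. At 2 weeks *H2-Ab1* was 0.05 with the trend removed and replicate 1 left out. *H2-DMa* was 0.11 with median-of-ratios scaling, 0.13 with the trend removed, 0.32 with the trend removed and replicate 1 left out, and between -0.19 and 0.15 with single mice left out. *Ciita* was 0.14 and 0.12 with the trend removed, before and after leaving out replicate 1. *Itgax* was 0.02 with median-of-ratios scaling, 0.36 with quantile normalization, 0.35 with the trend removed and 0.26 with replicate 1 left out as well. The interaction was -0.34 for *H2-Aa*, -0.20 for *H2-DMb1* and -0.28 for *Cd207* with median-of-ratios scaling, -0.17 for *H2-DMb1* and -0.43 for *Cd207* with quantile normalization, and for *H2-Aa* between -0.13 and 0.33 with single mice left out. In the wild type with age, the trend removed gave -0.03 for *H2-Ab1*, -0.01 for *H2-Eb1*, -0.03 for *H2-DMa* and -0.03 for *Cd74*, the same with the library left out, and quantile normalization gave -0.15 for *Cd74*. In *Socs3* cKO with age, *Epcam* was -0.03 with median-of-ratios scaling and between -0.09 and 0.16 with single mice left out.

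Median-of-ratios scaling moved the median of all genes from -0.21 to -0.01 at the younger age and from 0.31 to 0.06 at the older. Of all genes, 1951 were called at 2 weeks, 751 with the replicate block, 3300 with all 4 groups in 1 fit, and 859 to 3348 with single mice left out. At 10 weeks 1957 were called, and 745 to 2665 with single mice left out. Same-numbered mice of the 2 genotypes did not deviate together (mean r across genes 0.02 at 2 weeks and -0.11 at 10 weeks), so the numbers were not taken as pairs. With the replicate block, *H2-Aa* at 2 weeks had an adjusted p of 0.0222, and at 10 weeks the block drops *Socs3* cKO replicate 4, which has no partner. Depth was unknown, so no limit of detection could be set for *Ciita* and *Itgax*, the lowest members.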
